A study of Mus musculus with 8 samples.

Results

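The glycerol 3-phosphate dehydrogenases Gpd1, Gpd1l and Gpd2 were compared between the livers of mouse pups that lack glycerol kinase and those of wild-type littermates. They are 3 of the 18193 genes that the array's annotation names through a probe set of exactly 1 gene. All 10 probe sets annotated to them were taken, 4 for Gpd1, 2 for Gpd1l and 4 for Gpd2. The members were fixed by gene name and not by a cut on measured values. They were chosen with earlier results of these data known. RNA from 4 wild-type and 4 glycerol kinase knockout livers was read individually on Affymetrix mouse arrays, 1 liver to an array, where several short oligonucleotides per region of a transcript make up a probe set. The pups were inbred C57BL/6J, labelled male, and taken on day of life 3. Wild-type pups were littermates of the knockouts of the same age. The knockout is a targeted disruption of the gene, and further details of the allele are not given in the sources used here. Per the series' design text, knockout pups of this age were already ill, with low blood glucose and acidosis. The level of the glycerol kinase transcript was not analysed here, so it did not check the group labels.

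Glycerol 3-phosphate stands between glycolysis, glycerol use, lipid synthesis and the respiratory chain. Gpd1, a cytosolic enzyme, uses NADH to reduce dihydroxyacetone phosphate to glycerol 3-phosphate, and also runs the reverse reaction. Gpd2 sits in the inner mitochondrial membrane, oxidises glycerol 3-phosphate with FAD and passes the electrons to ubiquinone. Together they form the glycerol phosphate shuttle, which carries reducing power from cytosolic NADH into mitochondria. In liver the same reactions turn glycerol that glycerol kinase has phosphorylated into dihydroxyacetone phosphate, a substrate of gluconeogenesis. Gpd1l is a cytosolic homologue of Gpd1, best known as a partner of the cardiac sodium channel.

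The arrays differed in ways that touch these genes. The deposited values are linear signal intensities, with a median between 147 and 174 on the 8 arrays. The spiked-in BioB control parted arrays 1 and 2 of both groups (141 to 167) from arrays 3 and 4 (258 to 338), and these 2 sets of arrays are given separately below. Wild type 4 did not match its label of a male pup: Xist, the RNA of the inactive X chromosome, was at 10506 there against 196 to 396 on the other 7 arrays. The fold changes of the 3 enzymes are therefore given with and without it. The 3'/5' signal ratio of pyruvate carboxylase, a control for RNA quality, was 7.03 on knockout 1 and 4.93 on knockout 2, and 2.06 to 3.46 on the other 6 arrays. Hepatocyte markers were strong in both groups, with albumin (Alb) at a mean signal of 23432.5 ± 3515 in wild type and 23607 ± 2404 in knockout (SD, n = 4). The 4 adipose markers with a probe set summed to 37.0 to 88.9 in wild type and 77.8 to 202.5 in knockout. The 5 skeletal muscle markers summed to 289 to 481 and 268 to 590. All 9 markers of these tissues lay below the signal minimum for testing. The 5 pancreas markers summed to 921 to 2041 in wild type and 887 to 3477 in knockout. Of these, 2 were tested and none passed. Of 5 stellate cell and fibroblast markers tested, 2 lay above 0 and 3 below, none passing, with Col3a1 lowest at -1.03 ± 0.30. The part of these cells in the results was not tested. The 5 erythroid markers tested all had lower values in the knockout, with none passing and medians of -0.65 on arrays 1 and 2 and 0.16 on arrays 3 and 4, and their part in the results was not tested. In RNA from whole liver, fewer cells of a type and less RNA per cell cannot be told apart.

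Gpd2, the mitochondrial enzyme, was lower in the knockout, at 0.275 of the wild-type mean on its brightest probe set. Probe set 1417434_at read 972, 2302, 1409 and 2542 on wild type 1 to 4. On knockout 1 to 4 it read 320.0, 603, 491 and 575. Every knockout array lay below every wild-type array, and the nearest arrays of the 2 groups were wild type 1 at 972 and knockout 2 at 603. The means were 1806 ± 739.8 and 497 ± 127 (SD, n = 4 each). On the log2(signal + 16) scale, used for all fold changes here, the change was -1.77 ± 0.31 (SE, 95% interval -2.44 to -1.09; limma adjusted p = 0.0488). It was 1 of the 31 probe sets called lower among 20395 tested, 0.152% of them, where called means a Benjamini-Hochberg adjusted p under 0.05.

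The second Gpd2 probe set with enough signal pointed the same way without passing the test. Probe set 1428323_at read 783, 711, 572 and 1291.5 in wild type and 166, 391, 261 and 421 in knockout. Its groups did not overlap either, as was so with the knockout lower for 4.85% of all probe sets tested. The log2 fold change was -1.41 ± 0.31 (SE, 95% interval -2.09 to -0.73; limma adjusted p = 0.0875). It was -1.18 ± 0.30 without the array labelled wild type 4 (limma adjusted p = 0.167). The threshold was passed in 1 of 22 alternatives, without knockout 4 (-1.58, limma adjusted p = 0.0453). In that fit 123 probe sets of the whole table were called lower, against 31 with all arrays. Without knockout 1, its lowest array, the change was -1.16 ± 0.27 (limma adjusted p = 0.143), the smallest of these alternatives. Both Gpd2 probe sets were lowest on knockout 1 and highest on wild type 4.

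The other Gpd2 probe sets were too dim to be tested, for which 4 or more arrays had to reach a signal of 200. Probe set 1452741_s_at reached 200 on 3 arrays, all wild type. It ran from 159 to 315 in wild type and from 20.7 to 171 in knockout, so the groups overlapped through wild type 3. Probe set 1428324_at reached 200 on 0 arrays, with 78.5 to 183.5 in wild type and 36.4 to 132 in knockout. Their mean ratios of knockout to wild type were 0.488 and 0.625. All 4 Gpd2 probe sets thus had a lower mean in the knockout, but the dim ones, close to the low end of the scale, separated the groups less well.

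**Figure D1:**
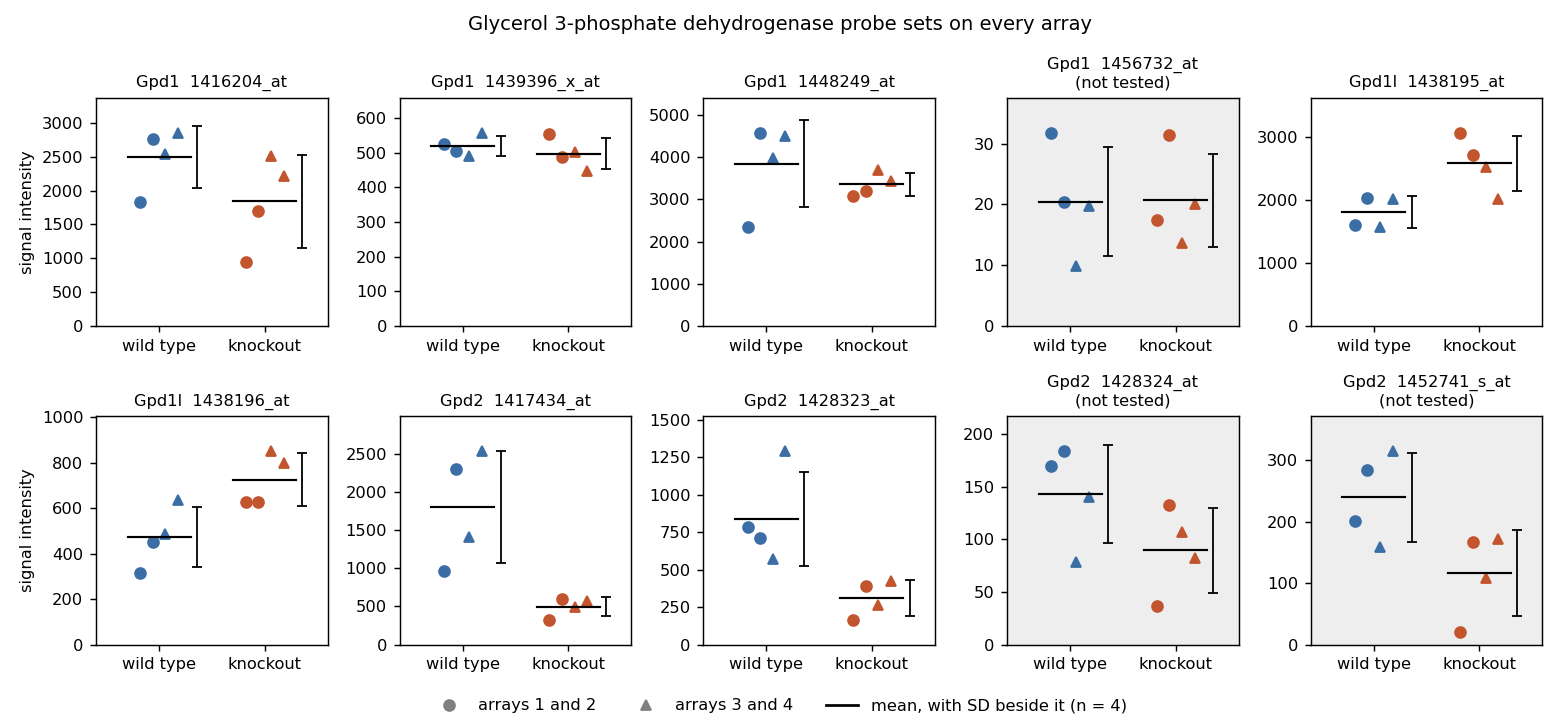
Signal intensity (linear, axes from 0) of all 10 probe sets of Gpd1, Gpd1l and Gpd2 on each array. Blue is wild type and orange knockout, circles are arrays 1 and 2 and triangles arrays 3 and 4, lines are means with the SD beside them (n = 4), and grey panels mark probe sets too dim to be tested. For Gpd2 1417434_at all knockout arrays (320.0 to 603) lie below all wild-type arrays (972 to 2542).

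The Gpd2 difference was below 0 in both sets of arrays. For 1417434_at it was -1.73 ± 0.43 on arrays 1 and 2 and -1.80 ± 0.27 on arrays 3 and 4 (SE; limma adjusted p = 0.139 and 0.102 with 2 arrays a group). The test of the difference between the sets gave -0.073 ± 0.62 (SE; limma adjusted p = 0.973). With 1 array left out at a time that difference ran from -0.69 to 0.54 and turned its sign in 4 of 8 fits, so these arrays do not fix its direction. Over all tested probe sets 0.00981% passed that test of the sets' difference, and none of the 7 of these genes did. For 1428323_at the values were -1.49 and -1.33. Without the array labelled wild type 4, the wild-type mean of 1417434_at fell from 1806 to 1561 ± 678, and the change was -1.57 ± 0.30 (limma adjusted p = 0.103). With the pyruvate carboxylase 3'/5' ratio as a covariate it was -1.60 ± 0.29 (limma adjusted p = 0.0547).

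Whether the change passed the threshold depended on the arrays kept and on the settings. With 1 array left out at a time the change of 1417434_at stayed between -2.03 and -1.57, and it was past the threshold in 2 of the 8 fits. The adjusted p was 0.173, 0.152 and 0.103 without wild type 2, 3 and 4, though without wild type 3 the change itself was larger (-1.85). Without knockout 1, 2 and 3 the adjusted p was 0.0872, 0.132 and 0.147. It stayed under the threshold without wild type 1 (0.0336) and without knockout 4 (0.0354), all by limma. Over all 23 alternative settings the direction was the same, and 8 of them kept the call.

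**Figure D2:**
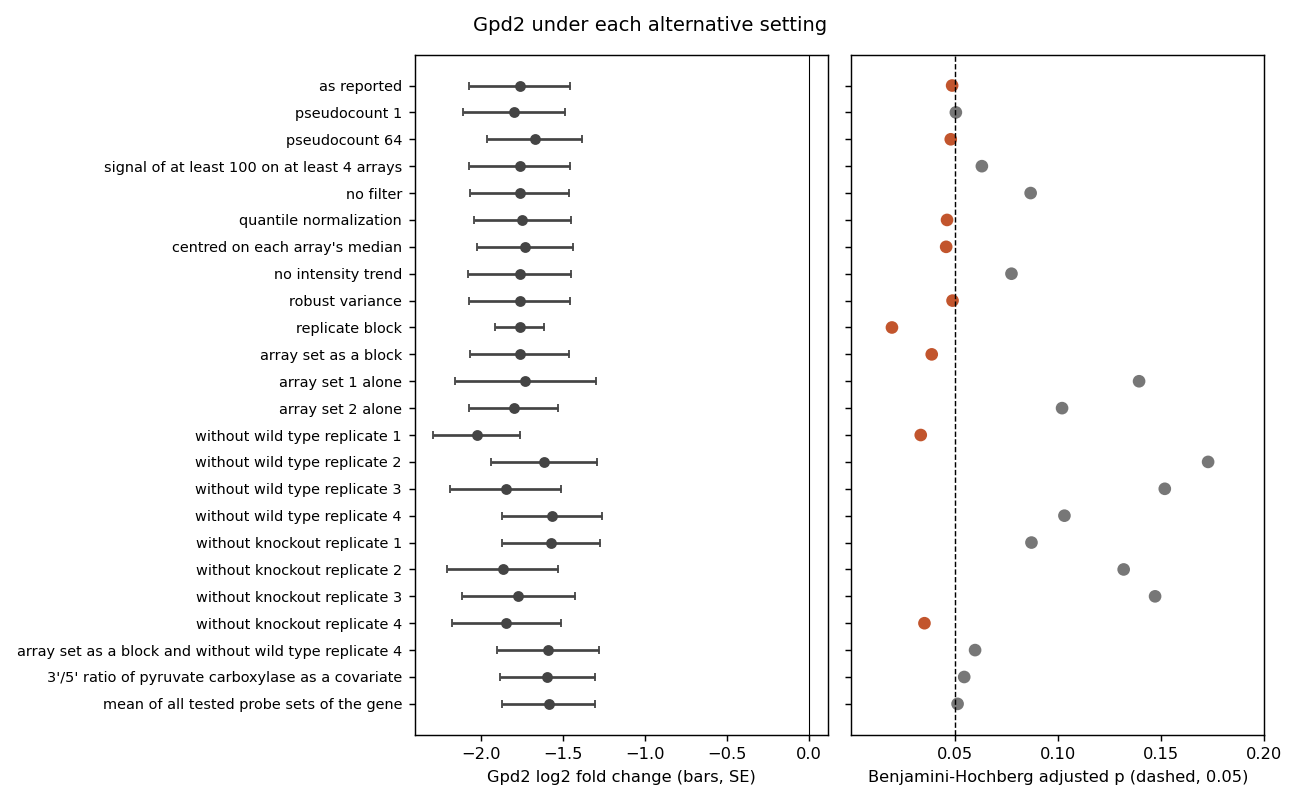
Log2 fold change of Gpd2 1417434_at with its SE (left) and its Benjamini-Hochberg adjusted p (right, dashed line at 0.05) for the reported fit and 23 alternatives. The fold change lies between -2.03 and -1.57 throughout, and the adjusted p crosses the line in both directions, from 0.0196 to 0.173.

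The brightest Gpd2 probe set also varied more between wild-type livers than most. The SD of its log2 signal over the 4 wild-type livers was 0.64 for 1417434_at, above that of 95.4% of the probe sets tested, whose median was 0.24. In knockout livers it was 0.40, above 76.7%. For 1428323_at the SDs were 0.49 and 0.58. Over the 3 wild-type livers without number 4 the SD was 0.62 for 1417434_at, above 93.8%, and 0.23 for 1428323_at, above 46.9%. The lowest wild-type value of 1417434_at was on wild type 1 and the highest on wild type 4.

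RefSeq gives Gpd2 a pair of transcription starts, and which of them the probe sets read was not analysed here. The 250 bases before each start are shown because Gpd2 is the enzyme that fell, with those before the start of Gpd1l, whose values went the other way. Of the 3 genes 2 matched the RefSeq promoter table (GRCm38.p6), and Gpd1 did not. All are written 5' to 3' along the gene, and capitals mark matches to the motifs named after them.

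Gpd2 start 1, chr2:57237428-57237677, plus strand: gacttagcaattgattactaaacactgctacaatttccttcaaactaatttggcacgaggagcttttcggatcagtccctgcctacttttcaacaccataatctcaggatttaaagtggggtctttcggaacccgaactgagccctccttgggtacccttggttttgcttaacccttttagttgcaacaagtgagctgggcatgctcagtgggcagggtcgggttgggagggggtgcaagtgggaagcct

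Gpd2 start 2, chr2:57238132-57238381, plus strand: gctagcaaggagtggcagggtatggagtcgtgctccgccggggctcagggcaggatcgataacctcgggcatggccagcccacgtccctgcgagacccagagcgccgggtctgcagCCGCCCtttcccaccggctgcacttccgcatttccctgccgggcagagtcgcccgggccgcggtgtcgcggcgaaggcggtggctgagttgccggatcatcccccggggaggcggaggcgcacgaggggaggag

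Gpd1l, chr9:114933988-114934237, minus strand: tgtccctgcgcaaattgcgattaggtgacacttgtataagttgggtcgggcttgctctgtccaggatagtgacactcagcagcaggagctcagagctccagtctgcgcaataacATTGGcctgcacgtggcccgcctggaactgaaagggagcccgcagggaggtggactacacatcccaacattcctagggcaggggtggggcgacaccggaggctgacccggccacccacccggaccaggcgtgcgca

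The windows of Gpd2 differ in base composition. The first holds 48.8% G and C and the second 71.2%, against a median of 52.4% over all 32851 windows of this length in the table, and that of Gpd1l holds 61.2%. Both strands were searched for the GC box GGGCGG, the CCAAT box CCAAT, the TATA box TATAAA and the nuclear receptor half-site AGGTCA. The second Gpd2 window has 1 GC box, on the opposite strand from 134 to 129 bases before the start. The Gpd1l window has 1 CCAAT box, on the opposite strand from 136 to 132 bases before the start. No TATA box, half-site or direct repeat was found in the windows shown. The GC box occurs in 32.7% of all windows, the CCAAT box in 33.8%, the TATA box in 12.4% and the half-site in 14.0%. The direct repeat occurs in 0.0152%. The matches found do not overlap, and they are descriptions of the letters only.

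Gpd1, the cytosolic enzyme, showed no change past the threshold. Its brightest probe set, 1448249_at, read 2349.8, 4583, 3979 and 4497 in wild type and 3093.5, 3198, 3700.4 and 3438 in knockout. The knockout arrays lay close together and inside the wild-type range, whose low end is wild type 1. The means were 3852 ± 1037 and 3357 ± 270.3 (SD, n = 4), and the log2 fold change was -0.15 ± 0.20 (SE; limma adjusted p = 0.775). Its 95% interval, -0.60 to 0.29 on the log2 scale, is 0.659 to 1.23 times the wild-type level. Single arrays moved this value: it was -0.37 ± 0.12 without wild type 1 (limma adjusted p = 0.197), -0.054 ± 0.22 without wild type 2 and -0.063 ± 0.22 without the array labelled wild type 4.

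The other Gpd1 probe sets differed from each other. Probe set 1416204_at read 1836, 2759, 2533.5 and 2854.5 in wild type and 947, 1699, 2505 and 2216 in knockout, a change of -0.50 ± 0.28 (SE; limma adjusted p = 0.443). Its groups overlapped, and its low knockout values were those of knockout 1 and 2, the arrays with the highest 3'/5' ratios of pyruvate carboxylase. Both belong to the same set of arrays, so set and ratio cannot be told apart among the knockouts. Their separate parts in the change were not tested. The test of the difference between the sets gave 0.63 ± 0.41 (SE, limma adjusted p = 0.597). With the array set as a block the change was -0.50 ± 0.22 (limma adjusted p = 0.263). Within arrays 1 and 2 the change was -0.82 and within arrays 3 and 4 it was -0.19. It was -0.22 ± 0.15 with that ratio as a covariate, -0.22 ± 0.19 without knockout 1 and -0.43 ± 0.31 without the array labelled wild type 4. Probe set 1439396_x_at, whose suffix marks probes that can also bind other transcripts, stayed between 446 and 557 on all 8 arrays (-0.063 ± 0.13, and -0.029 ± 0.15 without wild type 4). Probe set 1456732_at, between 9.9 and 31.8 on all arrays, was too dim to be tested.

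Gpd1l, the cytosolic homologue, had higher values in the knockout on both of its probe sets, and neither passed the threshold. Probe set 1438195_at read 1608, 2032, 1582 and 2022 in wild type and 3074, 2718, 2536 and 2017 in knockout. Knockout 4 fell among the wild-type arrays and the other knockout arrays lay above them. The means were 1811 ± 249.6 and 2586 ± 440.3 (SD, n = 4), and the log2 fold change was 0.50 ± 0.16 (SE, 95% interval 0.14 to 0.86; limma adjusted p = 0.198). Probe set 1438196_at read 313, 451, 488 and 635 in wild type and 629, 626.5, 851 and 799 in knockout. There wild type 4 was the array that overlapped. Groups without overlap and a higher knockout made up 4.47% of all probe sets tested, and 0 of the 2 Gpd1l probe sets. The change was 0.63 ± 0.21 (SE; limma adjusted p = 0.206).

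Both Gpd1l probe sets had an unadjusted limma p under 0.05 (0.0106 and 0.0119), as had 7.12% of all probe sets tested with the knockout higher. The first stood at 0.67 on arrays 1 and 2 and 0.34 on arrays 3 and 4, the second at 0.72 and 0.55. The knockout arrays were ordered differently by them, with knockout 1 highest in the first and knockout 3 in the second. Without the array labelled wild type 4 the changes were 0.56 ± 0.18 and 0.79 ± 0.20, and without knockout 4 that of 1438195_at was 0.62 ± 0.16 (limma adjusted p = 0.0846).

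**Figure D3:**
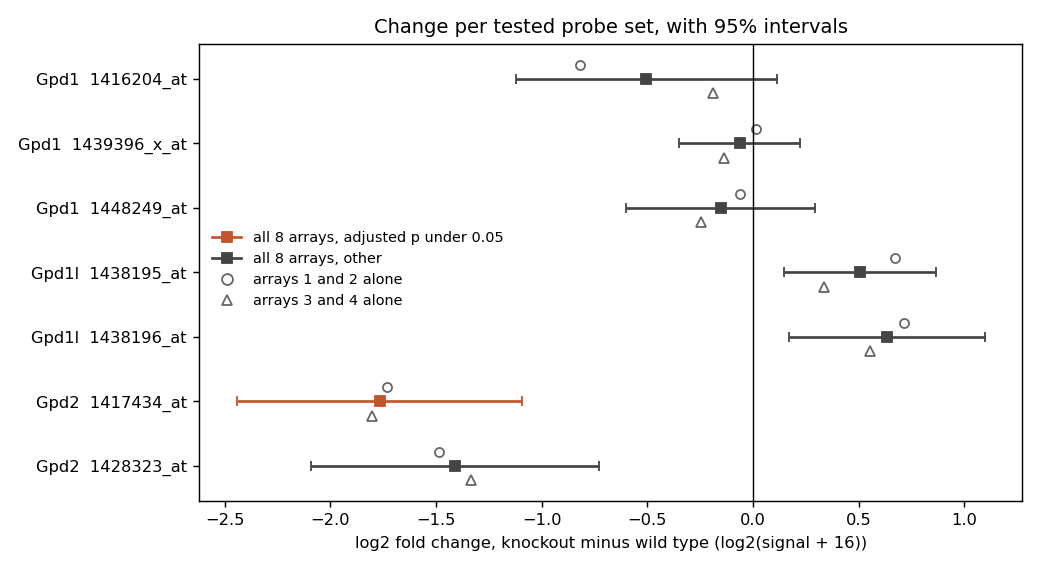
Log2 fold change, knockout minus wild type, of the 7 tested probe sets with 95% intervals (squares, all 8 arrays), and the same difference within arrays 1 and 2 (circles) and within arrays 3 and 4 (triangles). Both Gpd2 probe sets lie below -1 in each set of arrays, the Gpd1 probe sets lie between -0.82 and 0.014, and those of Gpd1l between 0.34 and 0.72.

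A call in Gpd2 and none in Gpd1 does not by itself show that their changes differ. To test this directly, the log2 signal of Gpd1 (1448249_at) was subtracted from that of Gpd2 (1417434_at) on each array, so that only the change between groups is read and not the levels of different probes. The difference was -1.26, -0.99, -1.49 and -0.82 on wild type 1 to 4 and -3.21, -2.38, -2.87 and -2.55 on knockout 1 to 4. The groups did not overlap. The knockout was lower by 1.61 on the log2 scale than the wild type, with means of -2.75 ± 0.37 and -1.14 ± 0.29 (SD, n = 4; exact two-sided permutation p = 0.0286, the smallest that 4 against 4 arrays allow). The ratio of Gpd2 to Gpd1 was thus 3.06 times lower in the knockout. With 4 against 4 arrays, groups without overlap always give this p. Gpd2 alone already had no overlap, as had 4.85% of all probe sets tested with the knockout lower. No such share was computed for differences between probe sets.

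Against Gpd1l (1438195_at) the gap was wider. The difference was -0.72, 0.18, -0.16 and 0.33 in wild type and -3.20, -2.14, -2.33 and -1.78 in knockout. The shift was -2.27 (exact two-sided permutation p = 0.0286, again the smallest possible), and the lowest value was that of knockout 1. These tests concern the same 8 arrays and share the Gpd2 values, so they are not independent of each other. With the means of all tested probe sets in place of the brightest, the shifts were -1.35 against Gpd1 and -2.16 against Gpd1l. Without the array labelled wild type 4 they were -1.51 and -2.13.

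**Figure D4:**
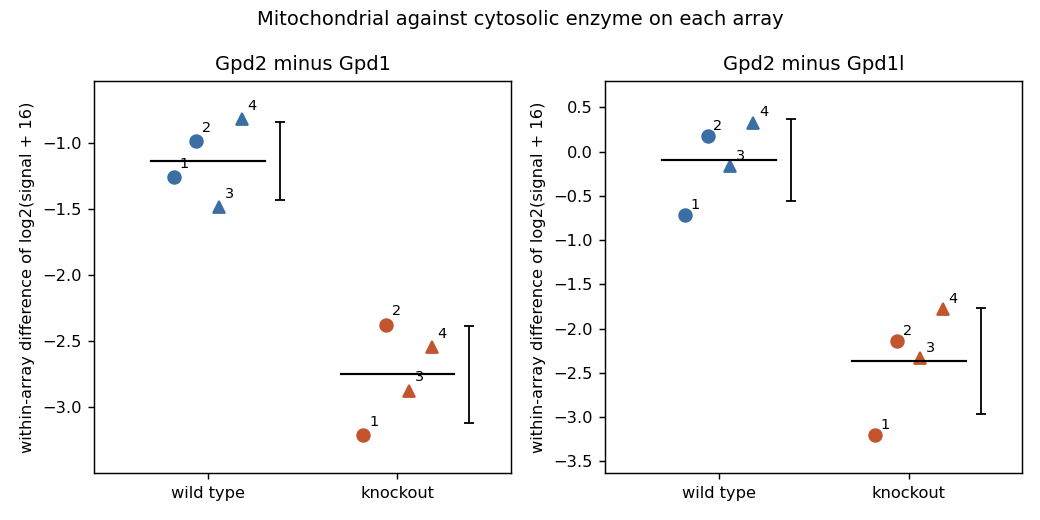
Within-array difference of log2(signal + 16) between Gpd2 and Gpd1 (left) and between Gpd2 and Gpd1l (right), 1 point per array with its replicate number, lines at the mean with the SD beside them (n = 4). The knockout arrays lie below all wild-type arrays in both panels, with means of -2.75 against -1.14 and of -2.36 against -0.094.

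Within the groups, the brightest probe sets of Gpd1 and Gpd2 varied together to some extent. Their deviations from the group means had a Pearson r of 0.80 over the 8 arrays, with wild type 1 low in both. For Gpd1l and Gpd2 it was 0.19. The tested Gpd2 probe sets had an r of 0.67 with each other, and those of Gpd1l 0.046. For Gpd1, r was 0.61 between 1448249_at and 1416204_at. It was -0.12 and -0.58 for 1439396_x_at against 1448249_at and 1416204_at. These values describe 8 arrays only, and probe sets on an array share its RNA and its scaling.

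The transcripts with profiles most like each member over the 8 arrays were named by Pearson r of the log2 signals. For Gpd2 they were Bclaf1 (0.98), Pcolce2 (0.98), Sec16b (0.98), Yif1a (0.97) and Gstt2 (0.97), all with Spearman's rho of 0.90 or higher. Since both groups differ in Gpd2, such an r partly reads the group difference, and with deviations from the group means it was between 0.87 and 0.96. Of these, Yif1a at -0.90 ± 0.15 and the glutathione transferase Gstt2 at -0.999 ± 0.17 were also called lower (limma adjusted p = 0.0466 for both). For Gpd1 they were Hspg2 (0.99), Rasip1 (0.99), Rbpj (0.99), Dnajc30 (0.98) and Zmynd11 (0.97). For Gpd1l they were Herpud1 (0.99), Furin (0.98), Cd9 (0.98), Idh3b (0.98) and Rwdd4a (0.98). They were picked as the highest of 10878 genes.

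The genes around these enzymes were read from 7 lists. Of the 68 genes listed, 58 were tested, 0 passed the threshold in either direction, and the lowest adjusted p was 0.0992 (limma). Before adjustment, 19 of the 58 were higher and 1 lower with p under 0.05, against 7.12% and 7.32% of all probe sets tested. The 58 are genes read from their brightest probe set, while shares over the table count every tested probe set, so the units differ. The adjusted p went under 0.05 without knockout 4 for Lpin1 (2.21, 0.0203), Got1 (1.41, 0.0434), Rxra (0.84, 0.0481) and Dio1 (1.42, 0.0377). In that fit 211 probe sets of the whole table were called higher, against 30 with all arrays, and of the 58 genes only those chosen by smallest p were followed. Dio1 also passed on arrays 1 and 2 alone (1.84, 0.0448) and with the array set as a block and wild type 4 left out (1.52, 0.0260). Without wild type 4 alone Dio1 stood at 1.44 and Got1 at 1.32, and neither passed. The groups did not overlap for 10 of the 58 genes (17.2%), against 9.32% of all tested. None fell as far as Gpd2. Over the 58 the median log2 fold change was 0.24 with 44 above 0, while over all probe sets tested it was -0.029 with 45.8% above 0. Hepatocyte markers lay above 0 as well (8 of 8 tested, none passing), with medians of 0.35 on arrays 1 and 2 and -0.12 on arrays 3 and 4, and their part in these medians was not tested.

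In glycerol uptake and phosphorylation 3 of 7 genes were tested. The aquaglyceroporin gene Aqp3 read 233 to 334 in wild type and 349.8 to 601 in knockout, with no overlap and a value of 0.69 ± 0.19 (limma adjusted p = 0.144). Aqp9, the main glycerol channel of hepatocytes, stood at 0.089 ± 0.19, at 0.49 on arrays 1 and 2 and -0.32 on arrays 3 and 4. Its sign also turned without wild type 1 (-0.063) and without knockout 1 (-0.043). Pgp, whose product can dephosphorylate glycerol 3-phosphate, stood at 0.042. Of the enzymes that draw glycerol 3-phosphate into lipids, 14 of 16 were tested, with a median of 0.21 and 8 above 0. Gpam, the mitochondrial acyltransferase of the first step, read 3540.5 to 4112 in wild type and 4119.6 to 7905.5 in knockout (0.45 ± 0.18; limma adjusted p = 0.309). Without knockout 1, its highest array, it stood at 0.25 ± 0.12. Lpin1, a phosphatidate phosphatase, had the largest value of the list at 1.64 ± 0.51 (limma adjusted p = 0.189), from 9718 on knockout 1 down to 1155 on knockout 4, which lay inside the wild-type range.

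Among the genes of triose phosphates, which supply and receive dihydroxyacetone phosphate, 8 of 10 were tested at a median of 0.093. Tpi1, which interconverts the triose phosphates, read 7486 to 8649 in wild type and 10207 to 13947 in knockout (0.51 ± 0.12; limma adjusted p = 0.102). Its 3 probe sets ran from 0.51 to 0.67. Tkfc, the triokinase that phosphorylates dihydroxyacetone and glyceraldehyde, was the lowest gene of all lists, with 3326 to 8674 in wild type and 1251 to 2514 in knockout (-1.27 ± 0.30; limma adjusted p = 0.103). Its groups did not overlap, and without wild type 2, its highest array, it stood at -0.96 ± 0.22.

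The malate-aspartate shuttle is the other route for cytosolic reducing power into mitochondria, and all 7 of its genes were tested. All 7 lay above 0 and none passed, with a median of 0.37, of 0.50 on arrays 1 and 2 and of 0.16 on arrays 3 and 4. The cytosolic malate dehydrogenase Mdh1 read 7281 to 8595 in wild type and 9368 to 12113 in knockout, with no overlap (0.45 ± 0.11; limma adjusted p = 0.113). The cytosolic aspartate aminotransferase Got1 stood at 1.07 ± 0.36 (limma adjusted p = 0.215), at 1.86 on arrays 1 and 2 and 0.28 on arrays 3 and 4. Of the other cytosolic NAD-linked dehydrogenases, the lactate dehydrogenase subunit Ldhb stood at 0.34 ± 0.17 and the alcohol dehydrogenase Adh1 at 0.24 ± 0.14. Without knockout 1, the highest array for both, they stood at 0.19 and 0.14, and on arrays 3 and 4 alone at 0.14 and -0.043.

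Gpd2 is 1 of several dehydrogenases that feed electrons to ubiquinone, and the 12 others listed were all tested. Of these 10 lay above 0 and none passed, at a median of 0.26. The succinate dehydrogenase subunits Sdhd and Sdhc stood at 0.55 ± 0.15 and 0.34 ± 0.13 (limma adjusted p = 0.139 and 0.270). Prodh2 and Sqor, the genes of this list below 0, stood at -0.30 and -0.25. The value of Gpd2, -1.77, lay outside the range of the 12, -0.30 to 0.55; they were not tested against it.

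Thyroid hormone is a known inducer of Gpd2 in liver, so its receptors, activating enzyme and other liver targets were listed too. Of 12 genes 11 were tested, 8 lay above 0 and none passed, at a median of 0.094. The deiodinase gene Dio1, itself a target, read 437 to 977 in wild type and 899.8 to 1869.8 in knockout (1.21 ± 0.28; limma adjusted p = 0.0992). Rxra, the receptors' partner, stood at 0.66 ± 0.21 (limma adjusted p = 0.185). The receptor gene Thrb stood at -0.11. Thra stood at -0.31 on its brightest probe set, and its 3 probe sets disagreed, up to 0.91. The target Me1, the cytosolic malic enzyme, stood at 0.62 ± 0.19 on its brighter probe set (limma adjusted p = 0.189). Its other probe set stood at 1.90. The remaining targets listed were Klf9 at 0.93 ± 0.40, Thrsp at 0.34 ± 0.80, Fasn at 0.051, Cpt1a at 0.025 and Acly at -0.21. Hormone levels were not measured.

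**Figure D5:**
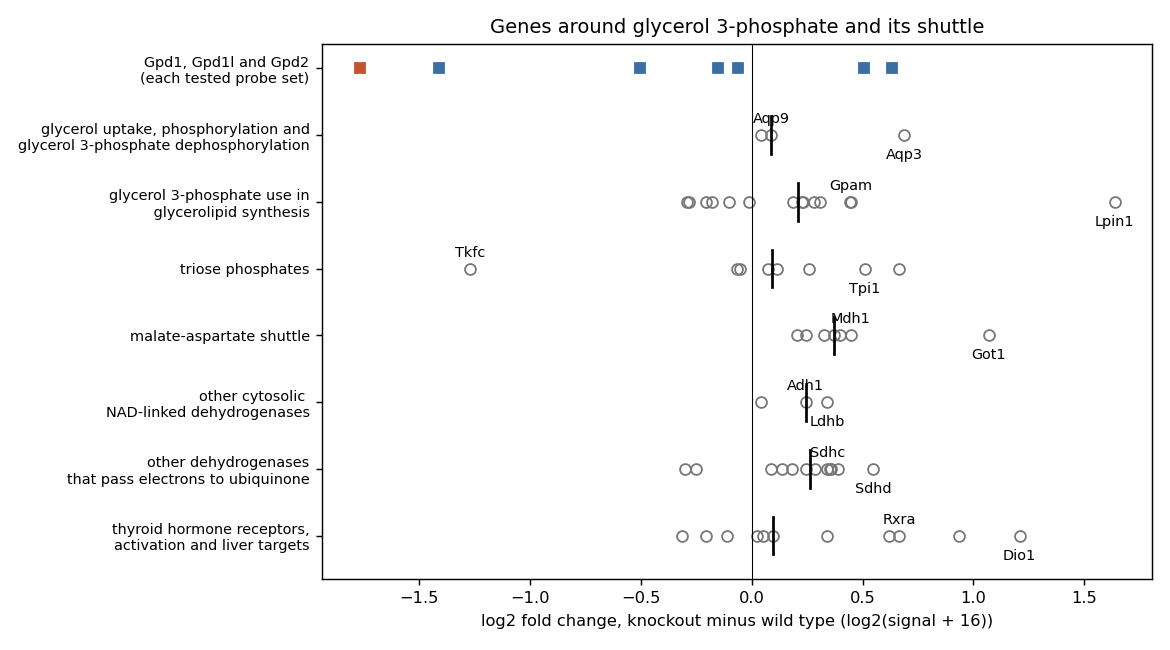
Log2 fold change, knockout minus wild type, of the tested genes of 7 lists (circles, brightest probe set per gene; lines, list medians; names, the genes of smallest p in each list) and of each tested probe set of Gpd1, Gpd1l and Gpd2 (squares, orange where the adjusted p is under 0.05). Gpd2 at -1.77 is the lowest point, followed by its second probe set at -1.41 and by Tkfc at -1.27, and the malate-aspartate shuttle lies wholly above 0.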

How the data were processed

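RNA of 8 livers was measured on 8 arrays. The deposited values are linear signal intensity, per the labels made with GCOS 1.2 and scaled per array to a target of 500; that scaling was kept. Genes were taken from the platform annotation, with symbols updated by Entrez identifier through a RefSeq table (GRCm38.p6). After 64 control probe sets were left out, 34945 probe sets had 1 gene, 932 several and 9160 none. Log2(signal + 16) of the 20395 probe sets with at least 200 on at least 4 arrays was fitted with limma 3.58.1 in R 4.3.3 (lmFit, eBayes with intensity trend, two-sided, Benjamini-Hochberg over all tested). The brightest tested probe set stands for a gene. Within-array differences were tested by exact permutation over 70 splits in Python 3.11.15. Named genes are all probe sets of the members and the 5 genes most alike each member. From each list they are up to 4 called genes by smallest p, or otherwise the 2 with the smallest p. Pgp, Thra, Thrb, Me1, Klf9, Thrsp, Fasn, Cpt1a, Acly, Prodh2 and Sqor were added after their values were seen. The members and lists were chosen with earlier results of these data known. The fit was tested on simulated data. Alternatives were other pseudocounts, signal minimums, scalings, variance models, blocks, probe set means and arrays left out; the spread without wild type 4 was added after the data were seen. The number of arrays limits the precision. RNA was isolated from each liver individually, per the design text. Litters are not given, so livers of the same litter could not be allowed for, and the p-values treat the livers as independent. Those of limma set the group difference against the spread between these livers, with variances moderated over all tested probe sets. The glycerol kinase transcript was not analysed here.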

Additional observations from a re-analysis of the deposited data

Results flagged for a closer look

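None of the member probe sets had an array far from the rest of its group, by a gap to the nearest array beyond Dixon's critical value for 4 samples. Tkfc, the triokinase, did in wild type, where wild type 2 read 8674 and the other 3 arrays 3326 to 3825. Ldhb did in knockout, where knockout 1 read 1389.9 and the others 870.4 to 959; without it the change of Ldhb was 0.19 in place of 0.34 on the log2 scale. Chance gives such a gap in about 1 of 20 groups, and 52 groups were examined.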

How the results depend on the processing

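Gpd1, Gpd1l and Gpd2 kept their direction in all 23 alternatives each, with ranges of -0.37 to -0.050, 0.34 to 0.67 and -2.03 to -1.57, and Gpd1 and Gpd1l passed the threshold in none. Gpd2 was no longer past it with a pseudocount of 1 (-1.80, adjusted p = 0.0506), a signal minimum of 100 (-1.77, 0.0632), no filter (-1.77, 0.0868), no intensity trend (-1.77, 0.0775), arrays 1 and 2 alone (-1.73, 0.139), arrays 3 and 4 alone (-1.80, 0.102), the mean of its tested probe sets (-1.59, 0.0514) and, added after the data were seen, the array set as a block without wild type 4 (-1.59, 0.0599) and the pyruvate carboxylase ratio as a covariate (-1.60, 0.0547). More probe sets enter the adjustment with the lower minimum or no filter; the other causes were not tested. With 1 array left out at a time it ran from -2.03 to -1.57, Gpd1 from -0.37 to -0.054 and Gpd1l from 0.42 to 0.62.

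Over the whole table, 30 higher and 31 lower calls became 8 and 14 with the minimum of 100, 8 and 13 with no filter, 4 and 14 without the trend, 103 and 81 with the array set as a block, 103 and 51 with that block and without wild type 4, 24 and 6 on arrays 1 and 2 and 0 and 2 on arrays 3 and 4, and ranged from 0 to 211 and from 2 to 123 with 1 array left out, being 211 and 123 without knockout 4 and 0 and 2 without wild type 2 or 3 or knockout 2 or 3. The shift of Gpd2 against Gpd1 stayed between -1.74 and -1.35, and against Gpd1l between -2.48 and -1.99. With 1 array left out no permutation test was run, so those are values only. The difference between the array sets turned from -0.18 to 0.30 for Gpd1 without wild type 1, and for Gpd2 to 0.54, 0.35, 0.37 and 0.038 without wild type 1, wild type 4, knockout 2 and knockout 3; with 1 array left out it ran from -0.66 to 0.30, from -0.69 to 0.54 and, for Gpd1l, from -0.51 to -0.16. Signs also turned for Gpd1 1439396_x_at on arrays 1 and 2 (0.014), for Adh1 on arrays 3 and 4 (-0.043), and for Aqp9 on arrays 3 and 4 (-0.32) and with 1 array left out (-0.063 to 0.17, below 0 without wild type 1 and without knockout 1).

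Same-numbered arrays deviated together with correlations of 0.05 to 0.40, under 0.1 in 1 of 4 pairs. The 12 differently numbered pairs ran from -0.34 to 0.37. Wild type 3 correlated better with knockout 4 (0.37) than with knockout 3 (0.34). The ranges overlap, and the numbers were not taken to pair the livers. With the replicate block the Gpd2 change was -1.77 ± 0.15 (limma adjusted p = 0.0196), Gpd1 -0.15, Gpd1l 0.50, and 26 probe sets were called higher and 30 lower; the within-array shifts were -1.61 and -2.27.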
